A study of Bombyx mori with 8 samples.

Results

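G4 regions called only in brain are places in silkworm (Bombyx mori) chromatin where both brain libraries had a G-quadruplex peak and neither fat body library did. The peak lists of 4 libraries were merged wherever peaks overlapped by at least 1 bp, and a merged region was kept when both brain lists and no fat body list had a peak in it. This left 2008 brain-only regions of 41892 merged regions, or 4.79%. Of the 4088 regions called in both brain lists, 49.1% were brain-only.

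A G-quadruplex (G4) is a fold that a guanine-rich DNA strand can take when runs of guanines stack into planar tetrads. In human cells such folds have been mapped mostly to open chromatin, and often to the promoters of active genes. CUT&Tag maps them by bringing a transposase to an antibody bound on chromatin, so that sequencing adaptors are inserted close to the bound site. The brain of an insect larva holds neurons, glia and neurosecretory cells, while the fat body stores fat and carries out much of intermediary metabolism.

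The brain group was wild-type brain of strain P50 at the stage coded L5D3, profiled with the G4-binding antibody fragment BG4, with 2 replicates. The fat body group was wild-type fat body of the same strain, stage code and antibody label, also with 2 replicates. The other 4 of the 8 labelled samples, among them an IgG library, were not analysed here. Nothing states whether replicates came from separate animals, so their spread may be technical, and no marker of either tissue can be checked in a peak list. Each tissue mixes cell types, so a fold carried by few cells and a weaker signal in many cells cannot be told apart.

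The lists held 6759 and 33925 peaks in brain replicates 1 and 2, and 8556 and 5894 in fat body replicates 1 and 2. Median summit heights were 49 and 66 fragments in the brain lists, against 58 and 43 in those of fat body. The peak names do not all match the labels. Every peak name of both fat body lists carries 1H6, another G4 antibody, where the labels say BG4. All names in brain replicate 1 carry BG4, and none in brain replicate 2 names either antibody. Only names of brain replicate 2 carry the texts rm-dup and q20, and all of them do. What these texts stand for is not stated. A difference between the brain replicates therefore cannot be told apart from a difference in processing. The stage text differs as well from the labelled L5D3. All names in brain replicate 1 carry 5L-4D, all in brain replicate 2 and fat body replicate 1 carry 5L4D, and none in fat body replicate 2 carries either. Groups are given as labelled, and whether all 4 libraries share a stage cannot be told from the names. Tissue and antibody therefore cannot be told apart in any comparison given here.

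The brain-only regions took similar numbers of peaks from the brain lists, but very unequal shares of them, since the lists differ in length. They used 2009 peaks of brain replicate 1, which is 29.7% of that list, and 2070 peaks of brain replicate 2, which is 6.10% of that list. In 1945 regions (96.9%) each brain list contributed a single peak. In 62 regions 1 peak of brain replicate 1 spanned 2 peaks of brain replicate 2, and in 1 region the reverse held. Without brain replicate 1 the count would be 30367 and the brain-only share 89.8%, and without brain replicate 2 they would be 3399 and 50.3%. At equal list lengths, with 5894 peaks kept per list by −log10 q, 354 regions remained brain-only, 49.5% of those in both brain lists. With a −log10 q of at least 20 in every list there were 871, or 45.0%.

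The folds, heights and calls described next come from the lists that chose the regions, so they describe the regions and support nothing further. Fold enrichment is the authors' value at the summit over the local background. In brain replicate 1, peaks in brain-only regions had folds from 2.46 to 20.3 with a median of 5.11. The median fold there was 5.37 where 1 fat body list also called the region, 6.18 where all 4 lists did and 4.53 where no other list did. In brain replicate 2, peaks in brain-only regions had folds from 2.26 to 33.5 with a median of 5.80. The corresponding medians there were 5.81 with 1 fat body list, 5.84 in all 4 lists and 5.08 in that list alone. Brain-only peaks thus lay between the list's unshared and fully shared peaks in replicate 1, and level with the shared peaks in replicate 2.

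**Figure D1:**
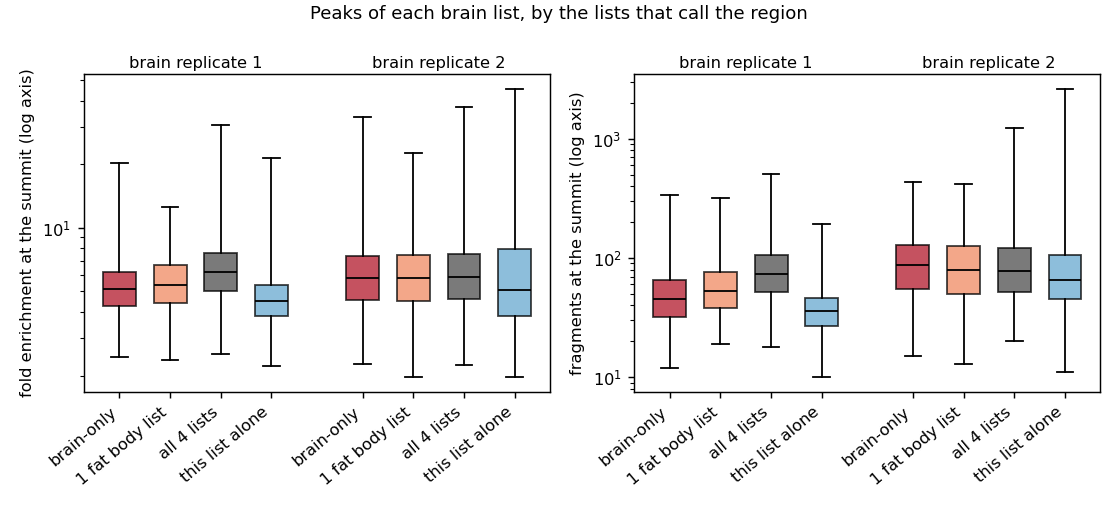
Fold enrichment (left) and fragments at the summit (right), both on log axes, for peaks of each brain list grouped by which lists call the region. Boxes span the quartiles with a line at the median, and whiskers run from the lowest to the highest peak. Median folds of brain-only peaks are 5.11 in replicate 1 and 5.80 in replicate 2, beside 6.18 and 5.84 for regions in all 4 lists.

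Summit heights showed the same split between the replicates. Brain-only peaks had a median of 45 fragments in brain replicate 1, with 73 for regions in all 4 lists. In brain replicate 2 the order was the other way, with a median of 87 fragments in brain-only regions and 78 in regions of all 4 lists. The local background around the peak did likewise. Its median was 8.51 fragments in brain-only regions and 10.9 in regions of all 4 lists in replicate 1, but 14.5 and 12.5 in replicate 2. Low −log10 q values were more common in replicate 1 than in replicate 2. Below 10 lay 22.3% of brain-only regions in replicate 1 and 4.48% in replicate 2. Few lay close to the lowest values of these lists, 5.08 and 5.01, with 4.48% and 0.498% below 7.

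The 4088 regions called in both brain lists were also ranked and divided into 5 equal bins. From the lowest to the highest bin by fold in replicate 1, the brain-only share was 64.0%, 57.8%, 52.5%, 40.6% and 30.7%, beside 49.1% over all of them. Ranked by fold in replicate 2, the shares of the same regions were 52.8%, 48.2%, 48.6%, 48.7% and 47.4%. By peak width the share went from 67.8% in the lowest bin to 26.4% in the highest in replicate 1, and from 50.9% to 44.0% in replicate 2. By local background in replicate 1 the shares were 69.8%, 55.6%, 46.4%, 42.3% and 31.5%. By local background in replicate 2 they were 47.5%, 38.5%, 49.4%, 55.3% and 54.9%, lowest in the second bin (interval 35.2% to 41.9%). The brain-only share was thus lower in each higher bin of fold, width and background in replicate 1. In replicate 2 it varied little by fold, and by background it varied with no steady order.

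**Figure D2:**
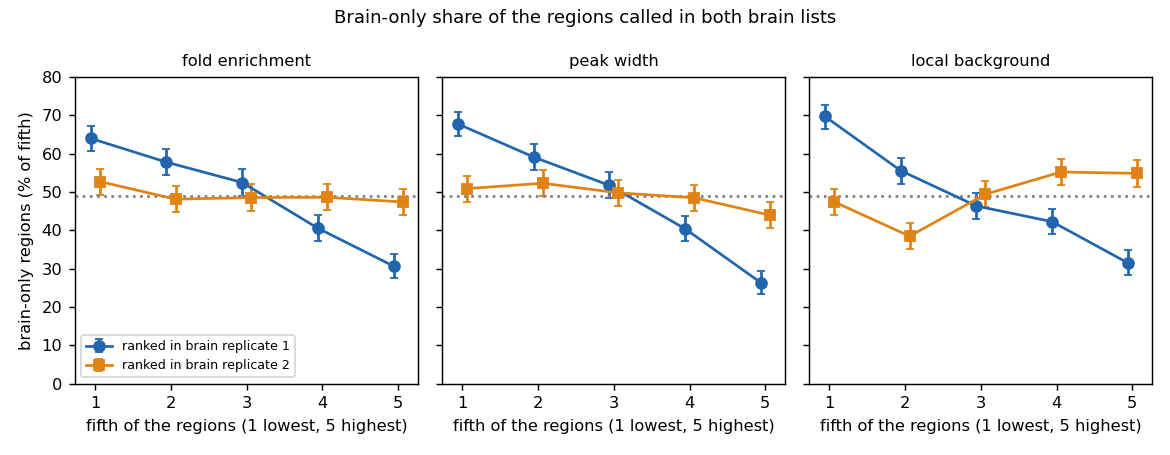
Brain-only share of the 4088 regions called in both brain lists, in 5 equal bins ranked by fold (left), peak width (middle) and local background (right) in brain replicate 1 or 2. Bars are 95% Wilson intervals and the dotted line is 49.1%. Shares fall from 64.0% to 30.7% by fold in replicate 1 and stay between 47.4% and 52.8% by fold in replicate 2.

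Within brain-only regions the summits of the replicates lay close together, which the rule favours because it needs their peaks to overlap. The summits of the 2 brain peaks lay a median of 69 bp apart (quartiles 13 and 147 bp), and 64.2% lay within 100 bp. In regions of all 4 lists, where brain peaks may be joined only through a fat body peak, the median was 78 bp. There 60.3% lay within 100 bp. The 2 brain peaks of a brain-only region overlapped by a median of 314 bp, or 98.9% of the narrower peak. Folds of the 2 brain lists had a Spearman correlation of 0.547 across the 2008 brain-only regions and 0.470 across the 1541 regions of all 4 lists. These points share the genome sequence and its mappability, so the correlations are descriptions. Both brain folds exceeded their list medians in 799 brain-only regions (39.8%), against 53.9% of regions of all 4 lists. Neither did in 541 brain-only regions (26.9%), against 15.7% of regions of all 4 lists. Only replicate 2 did in 476 brain-only regions (23.7%) and only replicate 1 in 192 (9.56%). In regions of all 4 lists these stood the other way round, with replicate 2 alone in 11.7% and replicate 1 alone in 18.7%. A fold of at least 8 in both brain lists was reached by 99 brain-only regions (4.93%), against 135 regions of all 4 lists (8.76%).

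Brain-only regions were 295 to 1957 bp wide, with a median of 550 bp and quartiles of 442 and 726 bp. Regions of both brain lists and 1 fat body list had a median of 678 bp, and regions of all 4 lists 862 bp. Merging more lists widens a region by construction, so the brain peaks themselves were compared as well. Their widths are also tied to the rule, since a wider brain peak overlaps a fat body peak more easily. How much of the difference in width this gives was not tested. In brain replicate 1 the median peak was 454 bp in brain-only regions, 505.5 bp with 1 fat body list and 641 bp in all 4 lists. In brain replicate 2 these medians were 368, 371 and 387.5 bp. The narrower width of brain-only peaks was thus large in replicate 1 and slight in replicate 2. Replicate 1 gave the wider of the 2 peaks in 65.3% of brain-only regions, and in 80.2% of regions of all 4 lists. At least 1000 bp was reached by 161 brain-only regions (8.02%) and 1500 bp by 15.

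The widest brain-only region lay on sequence 7 at 1619868 to 1621824 and spanned 1957 bp, coordinates being 1-based in the assembly of the lists. Its width came from replicate 2, whose peak was 1741 bp wide with a fold of 8.38, while the replicate 1 peak was 406 bp wide with a fold of 5.80. On sequence 18 at 151320 to 153258, both lists were wide, with peaks of 1600 and 1168 bp and folds of 6.32 and 5.05 in replicates 1 and 2. Sequence 26 at 9548554 to 9550443 (1890 bp) took its whole width from replicate 2. So did sequence 7 at 3479076 to 3480865 (1790 bp), where replicate 1 had only 19 fragments at the summit. Sequence 7 at 6491546 to 6493245 (1700 bp) took its whole width from replicate 1, and its replicate 2 peak was 257 bp wide.

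The strongest brain-only regions in both lists at once, ranked by the smaller of the 2 summit heights, lay on 5 sequences. On sequence 27, the region from 235368 to 236503 had 275 and 303 fragments at the summits of replicates 1 and 2, with folds of 8.70 and 7.44 and summits 1 bp apart. The region on sequence 9 from 8571678 to 8572568 reached 221 and 253 fragments. On sequence 21, from 7207439 to 7208031, the summits fell on the same base and held 210 and 209. Heights were 336 and 198 on sequence 11 from 1582120 to 1583488, and 189 and 292 on sequence 7 from 6786005 to 6786680. A fat body peak lay within 3 kb of 3 of these 5. The nearest fat body peak was 1824 bp from the region on sequence 9, 2652 bp from that on sequence 21 and 2052 bp from that on sequence 7. It was 18063 bp away on sequence 27 and 19036 bp on sequence 11.

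Most brain-only regions lay more than 10 kb from any fat body peak. On the 28 long sequences, which held 1996 of them, the nearest fat body peak lay a median of 28.4 kb away, with quartiles of 9.65 and 73.9 kb. Measured to each fat body list alone, the medians were 40.2 kb to replicate 1 and 39.1 kb to replicate 2. The nearer peak belonged to replicate 1 for 1021 regions and to replicate 2 for 900, and 75 were equally far from both. A fat body peak lay within 1 kb of 52 regions (2.61%) and within 10 kb of 513 (25.7%, interval 23.8% to 27.7%). One lay within 50 kb of 1297 (65.0%) and within 100 kb of 1634 (81.9%). The remaining 362 (18.1%) were more than 100 kb away.

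Regions that also lack a fat body peak but were called in only 1 brain list can be set beside them. Regions of brain replicate 1 alone lay closer to fat body peaks, at a median of 16.4 kb, and 39.0% of them (interval 36.4% to 41.6%) had one within 10 kb. Regions of brain replicate 2 alone lay at a median of 31.0 kb, and 25.2% (interval 24.7% to 25.7%) had one within 10 kb. The share for brain-only regions was thus close to that for replicate 2 alone and lower than that for replicate 1 alone. These shares come from the lists that define the classes, and their intervals cover counting error only, not spread between libraries. Distance from fat body had Spearman correlations of only 0.0688 and 0.0576 with fold in replicates 1 and 2 across the 1996 regions. The 52 regions within 1 kb of a fat body peak had median folds of 4.46 and 5.30 in replicates 1 and 2, and the 362 beyond 100 kb had 5.24 and 6.07.

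**Figure D3:**
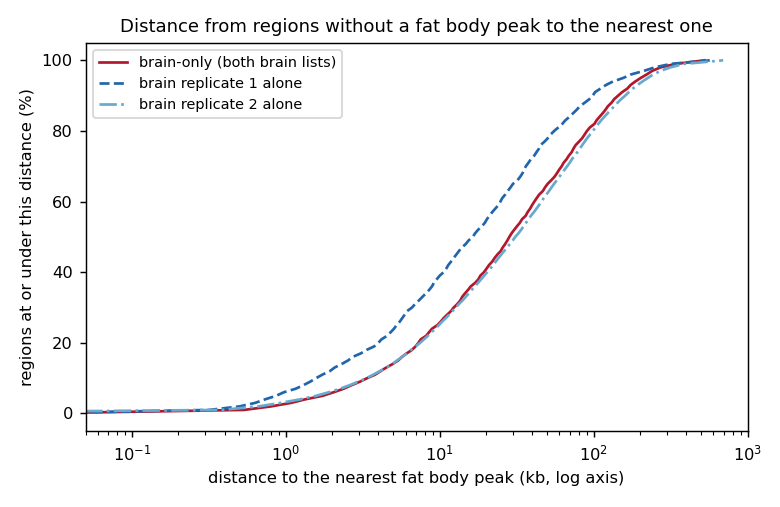
Cumulative share of regions (vertical axis, %) against distance to the nearest fat body peak in kb (log axis) on the 28 long sequences. Medians are 28.4 kb for brain-only regions, 16.4 kb for regions of brain replicate 1 alone and 31.0 kb for regions of brain replicate 2 alone.

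The 5 most isolated regions lay on sequences 24, 25, 21 and 28. Sequence 24 at 4428221 to 4429285 was 526 kb from the nearest fat body peak, with folds of 7.04 and 5.35 and summits of 116 and 130 fragments in brain replicates 1 and 2. On sequence 25, the region at 13672891 to 13673433 was 525 kb away, and the region at 13429668 to 13430176 was 485 kb away. Sequence 21 at 15089752 to 15090274 was 505 kb away, with its 2 brain summits on the same base and 110 and 184 fragments. Sequence 28 at 6194422 to 6194982 was 504 kb away and was the most enriched of the 5, with folds of 11.4 and 12.6.

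At the other extreme, 4 regions escaped overlap with a fat body peak by no more than 100 bp. Sequence 27 at 5766372 to 5766882 missed a peak of fat body replicate 1 by 21 bp, while the nearest peak of replicate 2 was 18676 bp away. Sequence 16 at 11962034 to 11963098 missed both fat body lists narrowly, by 40 and 58 bp, and had folds of 4.56 and 16.3 in brain replicates 1 and 2. Sequence 14 at 7987385 to 7988726 missed by 70 bp, with brain summits 1062 bp apart, and sequence 11 at 10964802 to 10965411 missed by 76 bp. The median fold of these 4 regions was 4.08 in brain replicate 1 and 4.81 in brain replicate 2. Next in order came sequence 5 at 18792942 to 18793662, which missed a peak of fat body replicate 2 by 126 bp. Just outside the rule, 5 regions had brain peaks overlapping fat body peaks by at most 50 bp, with median folds of 4.10 and 4.12. A further kind of near miss was the 539 regions called in both brain lists and 1 fat body list, of which 228 had a peak of fat body replicate 1 and 311 a peak of replicate 2.

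The surroundings of brain-only regions were poorer in fat body peaks than those of shared regions. Within 50 kb on either side, not counting peaks in the region itself, a brain-only region had a mean of 1.69 and 1.26 peaks of fat body replicates 1 and 2. A region of all 4 lists had 3.45 and 2.14, and a region of brain replicate 2 alone had 1.55 and 1.12. Over the long sequences the lists averaged 1.92 and 1.33 peaks per 100 kb. No peak of fat body replicate 1 lay within 50 kb of 44.4% of brain-only regions, and none of replicate 2 of 43.1%. For regions of all 4 lists these shares were 10.1% and 15.5%. Brain peaks differed less, at 1.69 and 7.89 of brain replicates 1 and 2 around brain-only regions and 2.08 and 6.82 around regions of all 4 lists. Leaving out regions that overlap a fat body peak favours places with few such peaks, and how much of the contrast this gives was not tested.

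Adjacent regions were counted on each side, so a region next to several brain-only regions counts for each. Immediately next to a brain-only region there was most often a region of brain replicate 2 alone. Such regions held 70.0% of the 3989 adjacent positions and made up 67.2% of all merged regions on the long sequences. Both adjacent regions were of this kind for 1039 brain-only regions (52.1%), and for 24.8% of regions of all 4 lists. Another brain-only region was adjacent in 7.32% of cases, beside its 4.81% of all regions. Fat-body-only regions, those with a peak in each fat body list and none in brain, numbered 1266, or 30.6% of regions called in both fat body lists. They were adjacent in 1.80% of cases, beside 3.05% of all regions.

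Neighbours were counted as well among the reproducible regions alone, those called in both lists of at least 1 tissue. On the long sequences 29.9% of these were brain-only. Neighbours were counted on each side of a region, so a pair of adjacent brain-only regions entered from both sides. Among the 3975 neighbour positions of brain-only regions, 1744 (43.9%, interval 42.3% to 45.4%) were held by brain-only regions too. The interval treats these positions as independent and is too narrow for that reason. Leaving out regions that overlap a fat body peak favours stretches with few such peaks. How much of this share that gives was not tested. Fat-body-only regions made up 13.5% of these neighbours and 19.0% of all reproducible regions, and regions of all 4 lists made up 18.4% and 23.1%. Around regions of all 4 lists, 24.1% were of their own class and 23.9% brain-only. Around fat-body-only regions, 23.7% were of their own class and 21.3% brain-only.

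Brain-only regions were also counted in runs along the sequences, a run being consecutive brain-only regions with no other reproducible region between them. There were 1124 runs, of which 679 were a single region, and 63 runs of at least 5 held 385 regions (19.3%). Runs of at least 5 held 2.34% of regions of all 4 lists and 1.66% of fat-body-only regions, both smaller classes, and class size was not adjusted for. The longest run of brain-only regions had 11, and the longest of each of those classes had 6.

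The longest run lay on sequence 18 from 14505114 to 15455024 and spread its 11 regions over 950 kb. All 11 peaks of brain replicate 1 in that stretch belonged to brain-only regions, which made up only part of the 79 peaks of brain replicate 2 there. Fat body replicates 1 and 2 had 3 and 1 peaks in it, none of which formed a region of both lists. The regions ranged from 325 to 1127 bp wide, with folds from 3.21 to 8.55 in brain replicate 1 and from 3.9 to 17.8 in replicate 2. The highest replicate 2 fold, at 14792714 to 14793840, went with 72 fragments at its summit and 15 in replicate 1. A pair of the regions, at 15139991 and 15146379, started about 6 kb apart, and the others were spaced more widely.

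**Figure D4:**
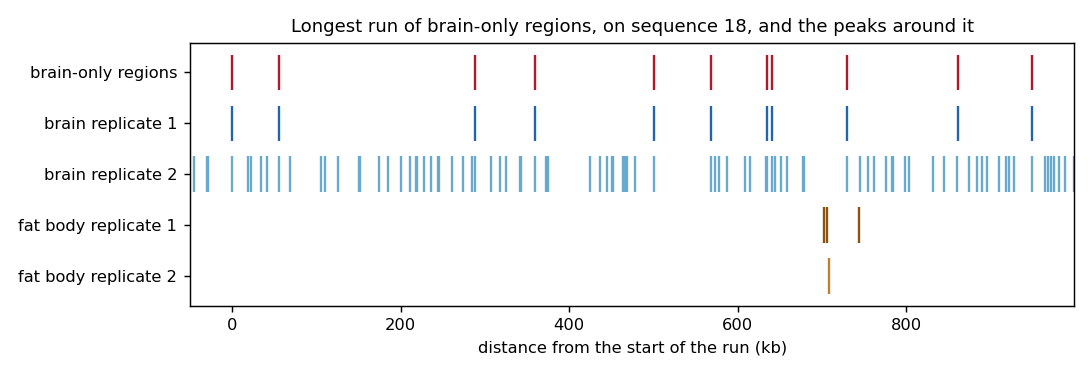
Map of the longest run of brain-only regions, on sequence 18, with the horizontal axis in kb from the start of the run. Each tick is the middle of a region or of a peak of the named list. The 11 brain-only regions coincide with the 11 peaks of brain replicate 1. The 3 and 1 peaks of fat body replicates 1 and 2 lie between 702 and 745 kb.

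The next run in length had 10 regions over 503 kb, on sequence 1 from 9511508 to 10014245. It held 12 and 21 peaks of brain replicates 1 and 2, and 7 and 1 of fat body replicates 1 and 2. The run of 9 regions on sequence 11 from 7993480 to 8183492 was the most compact of these 3, at 190 kb. It held 10 and 28 brain peaks and no fat body peak, with folds from 3.56 to 10.3 in brain replicate 1 and from 3.25 to 8.69 in replicate 2.

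Close pairs of brain-only regions were uncommon. The nearest other brain-only region lay a median of 63.8 kb away, with quartiles of 25.4 and 142 kb. It lay within 10 kb for 236 regions (11.8%, interval 10.5% to 13.3%) and within 1 kb for 24 (1.20%). For regions of all 4 lists the share within 10 kb was 12.0%, and for fat-body-only regions 10.0%. This share was 74.95% when brain replicate 1 was left out and 17.2% when brain replicate 2 was.

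Clustering at a fixed scale can be compared between classes of unequal size with the Morisita index, which is near 1 when items fall into windows independently and higher when they gather. Over 4457 windows of 100 kb, the index was 1.37 for brain-only regions. It was 1.69 for regions of all 4 lists, 1.70 for both brain lists with 1 fat body list, 1.93 for fat-body-only regions and 1.89 for both fat body lists with 1 brain list. The index of brain-only regions was thus the lowest of the 5 reproducible classes, while their share of neighbours of their own class was the highest. They were absent from 2940 windows (66.0%), single in 1144 and paired in 289, and 84 windows held at least 3.

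The fullest window held 6 brain-only regions, on sequence 1 from 3000001 to 3100000, out of 6 and 10 peaks of brain replicates 1 and 2 and 1 peak of each fat body list. Every replicate 1 peak there belonged to a brain-only region. The 6 regions were 393 to 842 bp wide, with folds from 3.17 to 7.99 in replicate 1 and from 4.59 to 6.41 in replicate 2. The window on sequence 20 from 300001 to 400000 held 5 among 7 and 4 peaks of fat body replicates 1 and 2. The nearest fat body peak was 759 bp from one of them. The window on sequence 4 from 4900001 to 5000000 also held 5, with 5 and 13 brain peaks and no fat body peak, and its regions lay 54575 bp or more from the nearest one.

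Along the long sequences brain-only regions were spread nearly evenly. When each sequence was divided into 10 equal bins, a bin held between 8.37% and 11.1% of them. The outermost 10% of length, 5% at each end, held 11.1% (interval 9.82% to 12.6%), and held 8.58% of regions of all 4 lists and 13.4% of fat-body-only regions. Within 1 Mb of an end lay 13.2% of brain-only regions, in 12.6% of the length. As a share of regions called in both brain lists, brain-only regions were 52.2%, 48.5%, 52.8%, 47.2% and 45.1% from the outer pair of bins to the inner pair. The third pair was as high as the outer one, so the share had no steady order along the sequences. The share was highest in the last bin, at 56.6% (interval 51.6% to 61.5%). It was 47.7% in the first (interval 42.6% to 52.8%), so the intervals of the 2 ends overlapped. The interval of the last bin excluded the overall 49.1%. So did those of the third bin (54.5%, interval 49.7% to 59.3%) and the sixth (44.2%, interval 39.6% to 48.9%). None was adjusted for the 10 bins.

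The 28 long sequences carried 26 to 111 brain-only regions each. Density ran from 2.37 per Mb on sequence 24 to 5.65 per Mb on sequence 25, with a median of 4.39. As a share of the regions called in both brain lists, brain-only regions ran from 36.3% on sequence 24 to 63.4% on sequence 1. The 95% interval excluded the overall 49.1% on 4 sequences. These intervals count regions as independent and were not adjusted for the 28 sequences, so some could exclude it by counting error alone. Sequences 1 and 21 were above it, at 63.4% (interval 56.1% to 70.2%) and 58.2% (interval 49.7% to 66.2%), and sequences 8 and 24 below it, at 37.9% (interval 30.2% to 46.1%) and 36.3% (interval 28.0% to 45.5%). That of sequence 21 barely excluded it. The intervals of most neighbours in this order overlapped, so the order of the 28 sequences is not resolved.

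**Figure D5:**
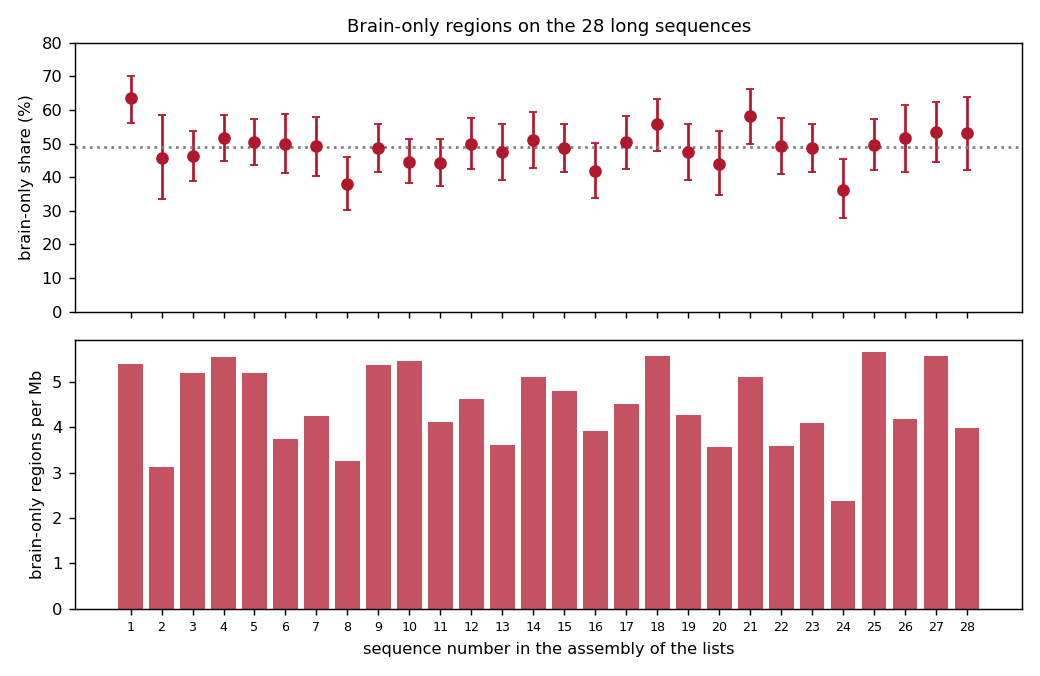
Brain-only share of the regions called in both brain lists (top, %, with 95% Wilson intervals and a dotted line at 49.1%) and brain-only regions per Mb (bottom) on the 28 long sequences. Sequence 1 is highest in share at 63.4% and sequence 24 lowest at 36.3%, and sequence 24 is also lowest in density at 2.37 per Mb.

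Sequence 1 held 111 brain-only regions, 5.56% of those on long sequences, in 4.64% of the length. With brain replicate 1 left out it held 3.10% of brain-only regions. Fat body peaks were sparse there, at 11.4 and 7.57 per Mb in replicates 1 and 2, where the medians over sequences were 18.6 and 13.1. Brain peaks numbered 13.5 and 49.965 per Mb in replicates 1 and 2, where the medians were 15.1 and 77.5. Sequence 24 was not short of brain peaks, at 14.5 and 79.5 per Mb, nor of fat body peaks, at 18.1 and 12.3. Across the 28 sequences, density of brain-only regions had a Pearson r of 0.499 (Spearman rho 0.496) with that of brain replicate 1 peaks. With brain replicate 2 peaks r was -0.0766 (rho 0.0991). The brain-only share had r of -0.474 (rho -0.490) with the density of fat body replicate 1 peaks and -0.544 (rho -0.503) with that of replicate 2. These quantities share the lists that define the regions.

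Distance to fat body varied between sequences more than width did. The median distance ran from 9.04 kb on sequence 20 to 65.5 kb on sequence 26. Median widths stayed between 502 and 588.5 bp on all 28.

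The remaining 12 brain-only regions lay on 11 short unplaced sequences, and none lay on the mitochondrial genome. For 7 of them no fat body peak existed on the same sequence, so a distance could not be given. Their summit heights ran from 14 to 57 fragments in brain replicate 1 and from 15 to 104 in replicate 2. Sequence 29 was the only one with 2 of them, at 133586 to 134021 and 151777 to 152261.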

How the data were processed

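G4 CUT&Tag peak lists of 4 libraries were used, brain and fat body at L5D3 with 2 replicates each. The submitters' processing notes name MACS2 2.1.0, deepTools 3.3.0, Bowtie2, Picard and Trim Galore, with no order or settings. The assembly was not named in the sources used here beyond the sequence names in the lists, from which the sequence numbers were taken. Each deposited list holds 1 library's peaks with the authors' fold enrichment (a ratio of the summit over local background), −log10 p and −log10 q. Its score column was deposited too and was not used. Read depth is unknown.

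Peaks overlapping by at least 1 bp were merged with Python 3.11.15, numpy 2.4.6, pandas 2.3.3 and scipy 1.17.1, and checked on simulated lists. Summit height in fragments and local background were solved from fold and −log10 p, taking fold as (height + 1)/(background + 1) and p as a Poisson upper tail. In every list 100% of peaks gave a whole number of fragments, to a tolerance of 0.02. Where a region held more than 1 peak of a list, the peak with the highest −log10 q stood for it. Intervals are 95% Wilson intervals and cover counting error only. Sequence lengths were taken as the end of the last peak of any list.

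The regions, classes and named-region rule were chosen with earlier results of these data known. The rule named the 5 regions farthest from and the 5 nearest to a fat body peak, the 5 widest, the 5 with the highest smaller brain summit height, the 3 longest runs and the 3 fullest 100-kb windows. Distances, runs and windows used the 28 long sequences. No test was run, since the lists chose the regions and 2 against 2 libraries cannot give an exact p under 0.333. Alternatives were −log10 q limits, equal list lengths, long sequences, a merging gap, margins around fat body peaks, other rules of overlap, and each library left out.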

Additional observations from a re-analysis of the deposited data

How the results depend on the processing

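A −log10 q of at least 20 in every list gave 871 brain-only regions, 45.0% of those in both brain lists, with a median distance of 44293 bp, 18.3% within 10 kb of a fat body peak, 6.68% within 10 kb of each other and 6.91% on sequence 1. A limit of 10 gave a share of 46.0%. Equal list lengths gave 354 regions, a share of 49.5%, 31367 bp, 23.7%, 5.08% and 9.32% in the outermost 10% of length. Applying the limit of 20 to fat body lists only gave 42788 bp, 18.4%, 13.4% and a share of 59.0%. Margins of 1 and 10 kb gave 29759.5 and 46145 bp and, by construction, 23.7% and 0% within 10 kb, and the larger margin a share of 36.5%. With 1 library left out, ranges were 2233 to 30367 regions, 414 to 561 bp in width, 23072.5 to 38676 bp in distance, 20.8% to 31.1% within 10 kb, 12.7% to 74.95% within 10 kb of each other, 9.54% to 11.1% in the outermost 10% of length, shares of 50.3% to 89.8%, and 3.10% to 5.46% on sequence 1. Of 98 recomputed values, 59 stayed within their spread, interval or 1.5 times the count. Where a value moved, the cause was not tested. Merging across 500 bp and long sequences alone moved none, and the 2 other overlap rules gave 1864 and 1859 regions. No paired analysis was possible because no result comes from a test. Read depth is unknown, and a missing fat body peak says only that none passed the caller's limit. Among regions of a single list, the lowest summits had 10 and 11 fragments in brain replicates 1 and 2. In fat body replicates 1 and 2 they had 22 and 17. The lowest local backgrounds were 1.04 and 1.76 fragments in the brain lists and 5.81 and 3.32 in those of fat body. How many brain-only regions this difference in floors concerns was not tested.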

Other observations

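The longest stretch between consecutive brain-only regions was 2037 kb, on sequence 24 from 13976566 to 16013483. It was not empty of brain signal, holding 31 and 174 peaks of brain replicates 1 and 2 and 48 and 28 of fat body replicates 1 and 2. Both brain lists shared 9 regions in it, each of which a fat body list also called. The next longest, on sequence 18 from 1209179 to 3028287, spanned 1819 kb and held 9 such regions. Sequence 18 thus carried both the longest run of brain-only regions and one of the longest stretches without any.

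Across the 1996 brain-only regions on long sequences, summit heights in the brain lists had a Spearman correlation of 0.644 and local backgrounds 0.705, while peak widths had 0.119. The points share the genome sequence and its mappability. No explanation was tested.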
